A study of Mus musculus with 6 samples.

Results

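Hypoxia response and glycolysis genes were examined in bone marrow stromal cells (BMSC) before and after their passage through the stroke-injured mouse brain. The set holds 40 listed genes, namely 6 of oxygen sensing and the hypoxia-inducible factor (HIF), 15 glycolytic enzymes, 6 transporters and regulators of glycolysis, and 13 other HIF targets. Of these, 37 were measured by a probe set annotated to that gene alone, out of 18193 genes measured in this way. Gpi1, Eno1 and Bnip3l had no such probe set in the annotation used and are not analysed here. Where a gene had several such probe sets, the brightest on average over the 6 arrays (mean log2 signal) was used.

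HIF is a pair of proteins, an oxygen-regulated alpha subunit (Hif1a or Epas1) and its constant partner Arnt. In oxygen-rich cells, prolyl hydroxylases of the Egln family mark the alpha subunit and the Vhl ubiquitin ligase removes it, so that HIF activity is set mainly at the protein level and need not show in the subunits' mRNA. When oxygen falls, HIF enters the nucleus, binds short sites with the core ACGTG or GCGTG and raises transcription of glucose transporters, glycolytic enzymes, and genes of survival, acid handling and collagen maturation. Marrow stromal cells live in a low-oxygen niche and are known for a strongly glycolytic metabolism.

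The naïve Large T BMSC were adherent marrow cells of H-2Kb-tsA58 mice (a CBA/ca × C57Bl/10 hybrid background), whose cells make a heat-labile form of the SV40 large T antigen from the interferon-responsive H-2Kb promoter and divide at 33°C. The iLarge T BMSC came from the same line. They were given intravenously to male C57Bl/6J mice of 6 to 8 weeks at 24 h after a 60 min occlusion of the middle cerebral artery. At 14 days after administration they were freed from the infarcted hemisphere by collagenase and grown again at 33°C. The arrays therefore measured regrown cultures and not cells inside the infarct, and the methods state an oxygen-rich gas mixture for the recovered cultures without naming the gas for the naïve ones. Both groups carry the large T transgene, no array shows uninjected cells taken through the same recovery, and each of the 3 arrays per group held RNA pooled from 3 hemispheres or 3 naïve cultures. All p-values measure the spread between arrays of pooled RNA. The submitters number the naïve arrays 1, 3 and 5 and the iLarge T arrays 2, 4 and 6.

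Values are MAS5 signals, a linear intensity per probe set, with the trimmed mean of each array at 2500. Differences are given as log2 fold changes of iLarge T over naïve BMSC with the standard error (SE) from limma, which fits a linear model to each probe set and moderates its variance with that of the others. A gene was called at a Benjamini-Hochberg adjusted p under 0.05 over all 45037 probe sets and a change of at least 2-fold. Signals under the 40th percentile of an array (182.5 to 299.6) were taken as near background. None of the 37 genes was near background on all arrays. Of 12 measured marrow stromal markers, collagen genes were bright in both groups (Col3a1 from 61965 to 127207), Pdgfrb and Cd44 were higher and Vcam1 was lower in iLarge T BMSC, and Lepr was near background on 2 arrays. Of 10 macrophage and microglia markers 1 was called higher and 0 lower. The called one, Csf1r, read 883, 330 and 339 on naïve arrays 1, 3 and 5 and 3716, 1892 and 5673 on iLarge T arrays 2, 4 and 6. Cd68 had a log2 fold change of -0.88 and read 544, 9873 and 8396 on the naïve and 317, 1329 and 16962 on the iLarge T arrays. The markers summed to between 2681 and 11029 on the naïve arrays and to between 4927 and 64621 on the iLarge T arrays. The highest sum was on iLarge T 6, where Tyrobp read 18261 and C1qa 8547, against 310 or less for Tyrobp and 23.9 or less for C1qa on the other arrays. Of 8 endothelial markers 2 were called higher (Cdh5 and Emcn) and 1 lower (Tek). Emcn read 2857, 2917 and 15858 on iLarge T arrays 2, 4 and 6 and at most 122 on the naïve arrays. Tek read 5703, 8480 and 9080 on naïve arrays 1, 3 and 5, most of the naïve sums, and 502, 458 and 1300 on the iLarge T arrays. The 8 markers summed to between 6790 and 9917 on the naïve and between 6832 and 52625 on the iLarge T arrays, again highest on iLarge T 6 (Cdh5 at 23797). Mesothelial markers were lower in iLarge T BMSC for 6 of 7 genes called, with sums from 156579 to 233148 on the naïve and from 3737 to 4998 on the iLarge T arrays (Upk3b at 76456 on naïve 3 and near background on all iLarge T arrays). Of 8 astrocyte markers 2 were called higher (S100b and Fabp7, the latter with a log2 fold change of 6.62), with sums from 1181 to 1546 and from 15319 to 23198, while Gjb6 was near background on all arrays. Of 8 neuron markers 3 were called higher (Tubb3, Nefm and Stmn2, Nefm at 6.54), with sums from 1637 to 11949 and from 27306 to 37543, while Nefl was near background on all arrays. The 2 groups thus differed in markers of cell identity as well as in the genes described here, and the part of these markers in the results was not tested. In mixed RNA, fewer cells of a type and less RNA per cell cannot be told apart.

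The promoters of 5 of these genes are shown because they hold the HIF core sites around which the set is built and because their genes gave contrasting readings: Hk2 and Ldhb, called higher, Ldha and Pgk1, higher on every iLarge T array without a call, and Egln3, whose naïve arrays were split. Each runs from 250 bases before to 50 after the transcription start, 5′ to 3′ on the gene's strand, from RefSeq on GRCm38.p6. Capitals mark ACGTG or GCGTG on either strand, so that CACGT and CACGC are the same cores read on the other strand, and the palindrome CACGTG holds the core on both strands and counts once for each.
Hk2 (chr6:82774405-82774704, minus strand): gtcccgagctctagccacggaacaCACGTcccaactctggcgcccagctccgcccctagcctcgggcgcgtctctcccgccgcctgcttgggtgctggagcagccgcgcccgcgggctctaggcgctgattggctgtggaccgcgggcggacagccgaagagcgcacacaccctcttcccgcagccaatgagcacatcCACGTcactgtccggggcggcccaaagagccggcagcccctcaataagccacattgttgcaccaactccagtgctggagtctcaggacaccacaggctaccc
Ldhb (chr6:142507908-142508207, minus strand): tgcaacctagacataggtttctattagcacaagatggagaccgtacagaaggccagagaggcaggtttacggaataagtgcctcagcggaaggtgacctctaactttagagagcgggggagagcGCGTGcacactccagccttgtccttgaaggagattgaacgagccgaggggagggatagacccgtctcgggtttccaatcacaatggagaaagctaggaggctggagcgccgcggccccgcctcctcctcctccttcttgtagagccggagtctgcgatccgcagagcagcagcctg
Ldha (chr7:46845554-46845853, plus strand): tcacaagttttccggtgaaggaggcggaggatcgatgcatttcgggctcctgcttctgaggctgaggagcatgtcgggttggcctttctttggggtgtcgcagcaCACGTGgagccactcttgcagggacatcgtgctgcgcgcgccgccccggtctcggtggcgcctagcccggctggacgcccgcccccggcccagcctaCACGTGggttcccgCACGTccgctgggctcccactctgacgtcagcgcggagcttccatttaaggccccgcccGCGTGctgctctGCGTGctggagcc
Pgk1 (chrX:106186850-106187149, plus strand): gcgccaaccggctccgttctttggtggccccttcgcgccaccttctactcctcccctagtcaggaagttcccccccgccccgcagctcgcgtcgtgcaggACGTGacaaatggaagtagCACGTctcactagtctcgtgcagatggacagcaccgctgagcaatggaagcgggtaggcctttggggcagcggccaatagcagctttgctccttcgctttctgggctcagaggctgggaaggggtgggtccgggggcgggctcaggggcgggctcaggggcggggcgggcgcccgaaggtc
Egln3 (chr12:54203825-54204124, minus strand): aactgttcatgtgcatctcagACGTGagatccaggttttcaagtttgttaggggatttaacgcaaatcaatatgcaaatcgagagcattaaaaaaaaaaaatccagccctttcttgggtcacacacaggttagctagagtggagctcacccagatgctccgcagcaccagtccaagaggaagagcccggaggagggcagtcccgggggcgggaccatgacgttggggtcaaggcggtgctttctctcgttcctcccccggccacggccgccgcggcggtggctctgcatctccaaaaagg

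A promoter was found in the RefSeq table for 32 of the 37 genes. Those of Epas1, Slc2a3, Ndrg1, Angptl4 and Plod2 are not in it. Either core was present in at least one promoter of 28 of the 32 genes (87.5%) and in 8574 of 14452 measured genes with a promoter (59.3%). ACGTG alone was present for 21 of the 32 (65.6%) and for 26.1% of all measured genes, and CACGTG for 5 of the 32 (15.6%; Bnip3, Hif1a, Ldha, Pfkfb3 and Pfkm) and 10.2%. The members' promoters are also richer in the dinucleotide CG, which both cores contain, with a median of 20 per promoter against 16. This did not hold for the enzymes, with a median of 15. The other HIF targets had 26, the oxygen-sensing genes 25 and the transporters and regulators 20. Among the enzymes 11 of 13 held a core, and among the other HIF targets 8 of 9. The first Ldha promoter holds 7 cores, Pgk1 and Hk2 hold 2 each, and Ldhb, the enzyme with the largest called change, holds 1. Egln3 holds 1, and Tpi1, Eno2, Vhl and Car12 hold none. A match describes letters in this window and is not evidence of binding.

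In iLarge T BMSC the hexokinase Hk2, the lactate dehydrogenase subunit Ldhb and the secreted factor Angptl4 were higher, and the other genes of the set did not pass the test with all arrays and no pairing. Of the 37 genes, 3 were called higher (8.11%) and 0 were called lower by limma, against 6.80% of all 18193 genes called in either direction, 3.54% higher and 3.26% lower. The share called is thus close to the background. The methods' t-test on log2 signals called 0 in either direction, but it called only 7 higher and 7 lower of all 18193 genes. A block fit, chosen after the data were seen, paired arrays by bioC spike-in signal (1 with 2, 3 with 4 and 5 with 6). By the bioB spike-in signal, naïve 3 (1955) was nearest iLarge T 6 (2206) and naïve 5 (3145) nearest iLarge T 4 (2559). With the block, limma also called Epas1, Ldha and Bnip3 higher and Aldoc and Ndrg1 lower. The share of all genes called in that block fit is not given here, so its calls have no background beside them. At an unadjusted limma p under 0.05, 12 of the 37 genes passed, 9 higher and 3 lower, against 22.0% of all genes. The signals of the groups did not overlap for 10 of the 37 (27.0%), 9 higher and 1 lower, against 27.6% of all genes, 14.5% higher and 13.1% lower. Over all 37 genes the median log2 fold change was 0.09, with 19 above and 18 below 0, and over all genes it was 0.06.

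Medians were computed for each group of genes. The 13 enzymes had a median log2 fold change of 0.52 and 9 of them were above 0, whereas the 12 other HIF targets had a median of -0.04 with 6 above 0. The 6 genes of oxygen sensing had a median of -0.48 with 1 above 0, and the 6 transporters and regulators one of -0.25 with 3 above 0. The summed signal of the enzymes lay between 237570 and 285514 on the naïve arrays and between 340394 and 378504 on the iLarge T arrays, without overlap, while that of the other HIF targets lay between 89433 and 129474 and between 102994 and 132721. Most of the enzymes' sum came from the bright Tpi1, Pgk1, Ldha, Aldoa and Pgam1. Of the 10 genes whose groups did not overlap at the probe sets used, 6 were enzymes, all higher (Hk2, Aldoa, Pgk1, Pgam1, Ldha and Ldhb). Another 2 were other HIF targets, Angptl4 higher and Kdm3a lower. Of all genes, 14.5% were higher without overlap and 13.1% lower. The median of the enzymes lay between 0.40 and 0.61 under all alternatives run, and that of the other HIF targets between -0.23 and 0.22. These medians describe genes chosen with earlier results known and were not tested.

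**Figure D1:**
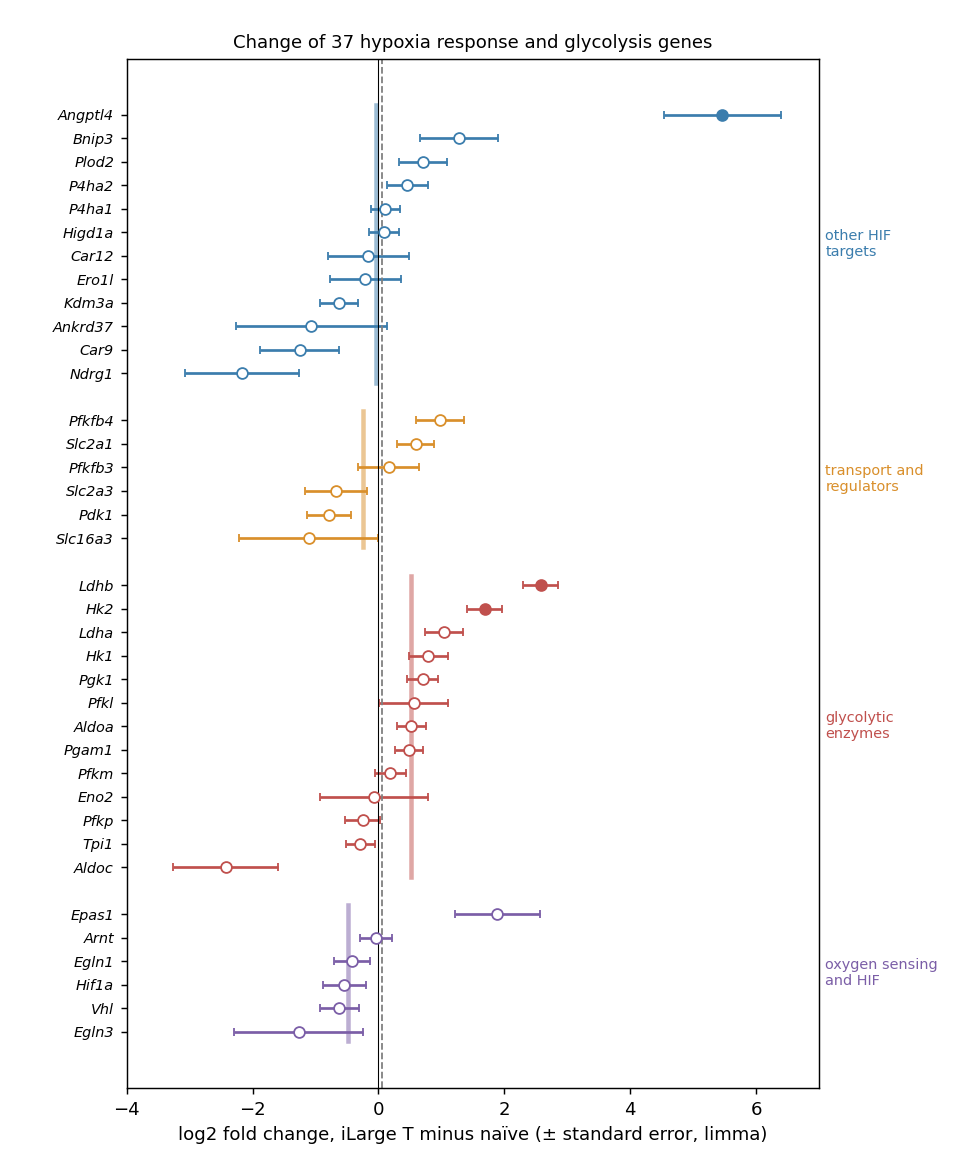
The horizontal axis gives the log2 fold change of each of the 37 genes, iLarge T minus naïve, with its limma standard error, and the vertical axis lists the genes in their 4 groups. Filled points are called, shaded vertical bars are group medians and the dashed line is the median of all genes (0.06). The enzymes' median lies at 0.52 and that of the other HIF targets at -0.04, and 3 points are filled.

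Glucose enters glycolysis through hexokinase. Hk2, the inducible and mitochondria-bound hexokinase, had signals of 3153, 2851 and 2179 on naïve arrays 1, 3 and 5 and of 10607, 7017 and 8813 on iLarge T arrays 2, 4 and 6. All iLarge T arrays were more than double the highest naïve array in signal, and the change was called (log2 fold change 1.69, SE 0.28, 3.22-fold, limma adjusted p = 0.00911). Hk1, the hexokinase of most resting tissues, read 5574, 5584 and 6245 on the naïve arrays and 6240, 13213 and 12286 on the iLarge T arrays. Its iLarge T 2 signal fell within the naïve range, and the log2 fold change of 0.79 (SE 0.31, limma adjusted p = 0.219) was not called. Hk2 has a single probe set here, and its call was kept whichever array was left out, with adjusted p between 0.00237 and 0.044.

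No enzyme of the middle of the pathway was called. The subunits of phosphofructokinase, which commits glucose to glycolysis, had log2 fold changes of 0.56 (Pfkl), 0.19 (Pfkm) and -0.25 (Pfkp), each with overlapping groups. Aldoa, the main aldolase of muscle and of most cultured cells, read 43219, 39635 and 31007 on the naïve and 58540, 52667 and 51177 on the iLarge T arrays, with no overlap but only 1.44-fold between the group means of log2 signals (limma adjusted p = 0.277). Triose phosphate isomerase, Tpi1, had a log2 fold change of -0.29 (SE 0.23) with overlapping groups. At its other probe sets all iLarge T arrays lay below the naïve ones, at -0.47 and -0.39, not called. Pgk1, the first enzyme of the pathway to yield ATP, read 61215, 43439 and 44347 on the naïve arrays and 87551, 75444 and 76841 on the iLarge T arrays. Every iLarge T array exceeded every naïve array at this probe set, and the log2 fold change was 0.70 (SE 0.24, limma adjusted p = 0.147). At the other probe sets of Pgk1, with log2 fold changes of 0.69 and 1.03, the groups overlapped. Pgam1, the next enzyme, had a log2 fold change of 0.48 (SE 0.22) with signals from 32980 to 38726 on the naïve and from 43397 to 54939 on the iLarge T arrays.

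Aldoc and Eno2, the aldolase and enolase forms known from brain, differed among the naïve arrays themselves. Aldoc read 952, 7405 and 7823 on naïve arrays 1, 3 and 5 and 302, 787 and 1491 on iLarge T arrays 2, 4 and 6. Naïve 1 thus lay inside the iLarge T range, and the log2 fold change of -2.43 (SE 0.83) was not called (limma adjusted p = 0.148). Without naïve 1 it was -3.43 and called lower (limma adjusted p = 0.00396), but leaving out the array that lay with the other group favours a call. The share of all genes called without naïve 1 is not given here. With arrays paired by spike-in signal Aldoc was called at -2.43 (limma adjusted p = 0.00796). Eno2 read 465, 3777 and 4640 on the naïve and 743, 3050 and 3081 on the iLarge T arrays. One array of each group was low and the log2 fold change was -0.07 (SE 0.86). Neither brain-type form was called higher in the cells recovered from brain.

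Lactate dehydrogenase converts pyruvate to lactate and back. Ldhb, the heart-type subunit, which favours the use of lactate, read 1237, 1421 and 1765 on the naïve arrays and 7547, 8244 and 10590 on the iLarge T arrays. Every iLarge T array was at least 4-fold above every naïve array, and the gene was called (log2 fold change 2.58, SE 0.28, 5.97-fold, limma adjusted p = 0.00133). All 4 of its probe sets were called higher, with log2 fold changes from 2.58 to 3.64 (2.47% of all probe sets were called higher and 2.27% lower), and the call was kept whichever array was left out (adjusted p between 0.00038 and 0.0112). Ldha, the muscle-type subunit and a classical HIF target, read 55303, 28802 and 28383 on the naïve and 74927, 65435 and 79402 on the iLarge T arrays. The groups did not overlap, and the log2 fold change was 1.04 (SE 0.30, 2.05-fold, limma adjusted p = 0.0857). It was not called with all arrays but was called without naïve 1, the highest of its group, at 1.35 (adjusted p = 0.0032), and with arrays paired by spike-in signal (adjusted p = 0.0259).

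**Figure D2:**
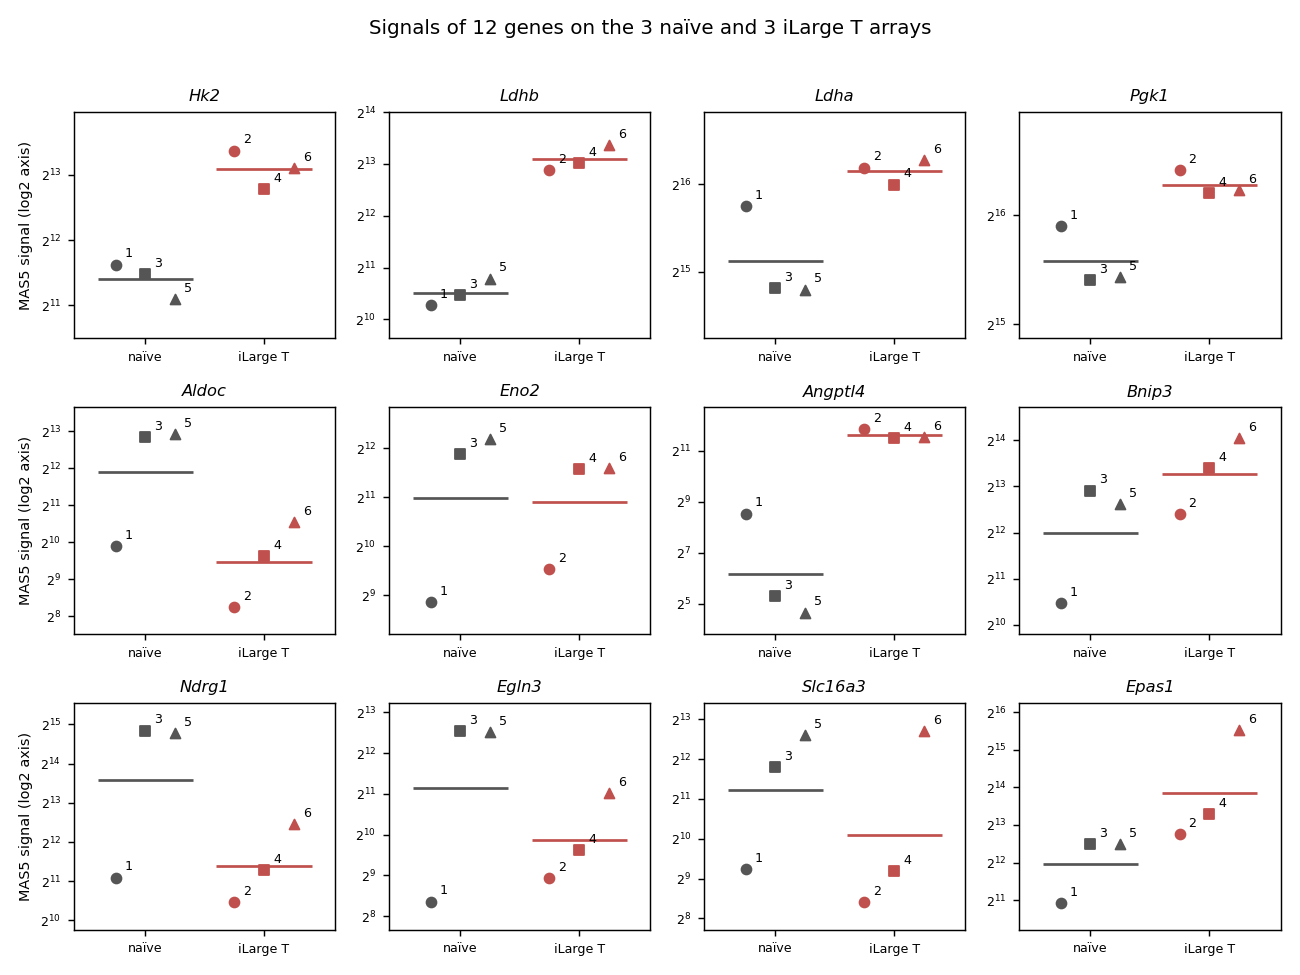
MAS5 signal (log2 axis, a separate scale in each panel) of 12 genes on naïve arrays 1, 3 and 5 (grey) and iLarge T arrays 2, 4 and 6 (red), each point labelled with its array number and horizontal lines at the group means of log2 signals. Hk2, Ldhb, Ldha, Pgk1, Angptl4 and Epas1 have no overlap between groups, whereas for Aldoc, Eno2, Bnip3, Ndrg1, Egln3 and Slc16a3 naïve 1 lies far below naïve 3 and 5.

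Related forms of an enzyme or factor were set against each other as the log2 ratio of their signals on an array, in which the scaling of the array cancels. A difference in such a ratio between groups shows unequal change of the 2 forms and not which of them changed. The ratio of Ldhb to Ldha was -5.48, -4.34 and -4.01 on the naïve and -3.31, -2.99 and -2.91 on the iLarge T arrays, a difference of 1.54 (SE 0.46, n = 3 per group). The ratio of Epas1 to Hif1a was -3.99, -3.49 and -3.44 on the naïve and -2.11, -1.53 and 0.01 on the iLarge T arrays, a difference of 2.43 (SE 0.66). These were the 2 of 12 ratios compared whose groups did not overlap, each with p = 0.1 by a two-sided exact permutation test, the smallest p that 3 against 3 arrays can give, and 0.4 after adjustment over the 12 ratios. The ratio of Aldoc to Aldoa differed by -2.95 (SE 1.33, exact permutation p = 0.2) and that of Hk2 to Hk1 by 0.89 (SE 0.55, exact permutation p = 0.2). For the 3 ratios among phosphofructokinase subunits the difference was between 0.37 and 0.81 and the groups overlapped.

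**Figure D3:**
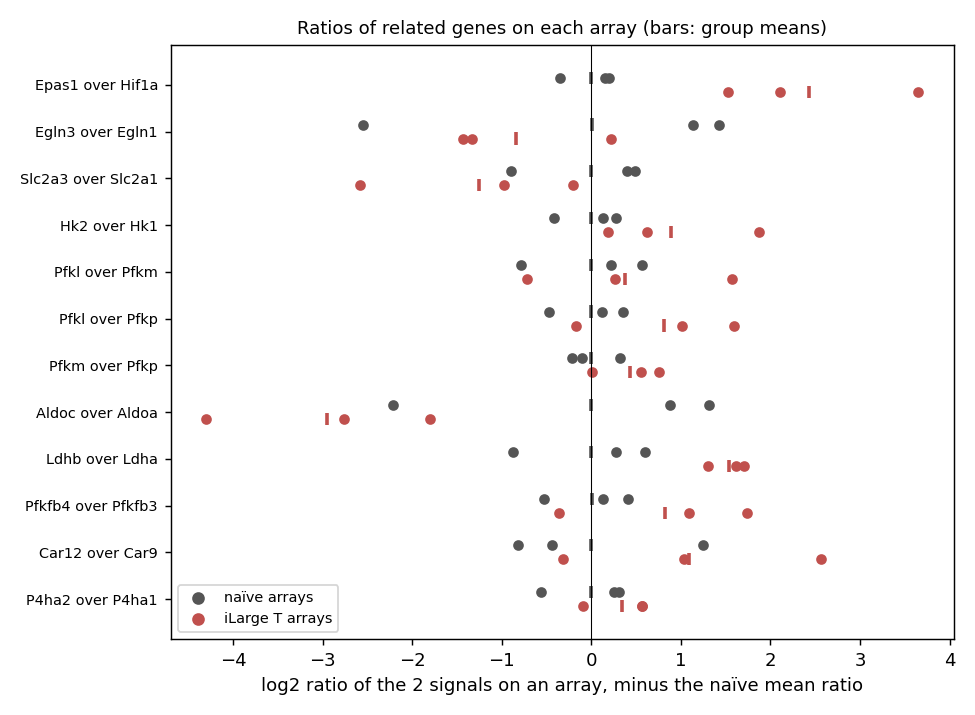
The horizontal axis gives the log2 ratio of the signals of 2 related genes on an array, minus the mean of that ratio over the 3 naïve arrays, and the vertical axis lists 12 pairs. Points are arrays and short bars are group means. The arrays of the groups are separate for Epas1 over Hif1a (difference 2.43) and Ldhb over Ldha (1.54) and overlap for the other pairs.

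No transporter or regulator was called by limma, and 2 of the 6, Pfkfb4 and Pdk1, had an unadjusted p under 0.05. Slc2a1, the widespread glucose transporter, read 10722, 8401 and 6404 on the naïve and 17735, 10104 and 10885 on the iLarge T arrays, and the log2 fold change was 0.59 (SE 0.30, limma adjusted p = 0.363). Slc2a3, the high-affinity transporter of neurons, had a log2 fold change of -0.67 (SE 0.49), and its 4 probe sets gave values from -2.89 to -0.11, none called. Slc16a3, which exports lactate from glycolytic cells, read 603, 3582 and 6207 on the naïve arrays and 341, 587 and 6678 on the iLarge T arrays. The groups overlapped over nearly their whole range, with iLarge T 6 at the top, and the log2 fold change was -1.11 (SE 1.11). Among the regulators, Pfkfb4, a bifunctional enzyme that sets the activator of phosphofructokinase, read 727, 911 and 1439 on the naïve and 2028, 2016 and 1805 on the iLarge T arrays, which did not overlap (log2 fold change 0.98, SE 0.38, limma adjusted p = 0.201). Its relative Pfkfb3 had a value of 0.16 (SE 0.48), and Pdk1, a kinase that inhibits pyruvate dehydrogenase, one of -0.78 (SE 0.35, limma adjusted p = 0.283).

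Of the oxygen-sensing genes none was called by limma, and 1, Epas1, had an unadjusted p under 0.05. Hif1a read 30898, 64630 and 62654 on the naïve and 30119, 28843 and 46930 on the iLarge T arrays, so that naïve 1 fell in the range of the recovered cells (log2 fold change -0.54, SE 0.34, limma adjusted p = 0.473). Epas1, the alpha subunit best known from endothelium, read 1949, 5734 and 5766 on the naïve and 6956, 10002 and 47130 on the iLarge T arrays. The groups did not overlap, but iLarge T 6 was more than 4-fold above the other recovered arrays, and the log2 fold change of 1.89 (SE 0.67, limma adjusted p = 0.166) was 1.06 without that array (adjusted p = 0.361). With arrays paired by spike-in signal it was called higher (limma adjusted p = 0.0221). Among the iLarge T arrays the endothelial markers were also highest on iLarge T 6, with Cdh5 at 2211, 2787 and 23797 on arrays 2, 4 and 6. Tek, however, was higher on every naïve array. The part of these markers in the Epas1 signal was not tested. Arnt, the shared partner, had a log2 fold change of -0.04 (SE 0.25). Egln1, the main oxygen-sensing hydroxylase, had one of -0.42 (SE 0.28) and Vhl one of -0.62 (SE 0.31), each with overlapping groups. Egln3, a hydroxylase that HIF itself induces, read 328, 5925 and 5851 on the naïve and 491, 789 and 2081 on the iLarge T arrays. Naïve 1 was the lowest array of all and the log2 fold change of -1.27 (SE 1.02) was not called (limma adjusted p = 0.600). Without naïve 1 it was -2.66 and called lower (limma adjusted p = 0.00999). Since naïve 1 lay with the iLarge T arrays, leaving it out by itself favours such a call.

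Of the 12 other HIF targets, 1 was called. Angptl4, a secreted inhibitor of lipoprotein lipase, read 370, 39.0 and 25.1 on the naïve and 3697, 2860 and 2937 on the iLarge T arrays. All recovered arrays lay well above all naïve arrays, 2 of which were near background, and the gene was called with a log2 fold change of 5.46 (SE 0.93, limma adjusted p = 0.00998). With low signals raised to the near-background limit the log2 fold change was 3.71. The call was lost without iLarge T 2, 4 or 6, at 5.34, 5.53 and 5.51 (adjusted p = 0.0623, 0.0544 and 0.0557). The second probe set of the gene, near background on every array, had a log2 fold change of -0.58, and the mean of both gave 2.44 and no call (adjusted p = 0.125).

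Bnip3, a mitochondrial protein of mitophagy, read 1411, 7696 and 6286 on the naïve and 5388, 10732 and 16973 on the iLarge T arrays. The iLarge T 2 signal lay among the naïve ones, and the log2 fold change was 1.28 (SE 0.62, limma adjusted p = 0.331), which was called with arrays paired by spike-in signal (adjusted p = 0.0348). Ndrg1, a stress gene strongly induced in hypoxic cells, read 2179, 29334 and 28280 on the naïve and 1412, 2483 and 5622 on the iLarge T arrays. Naïve 1 again lay with the recovered cells and the log2 fold change of -2.17 (SE 0.90) was not called (limma adjusted p = 0.244). Without naïve 1, a step that again favours a call, it was -3.41 and called lower (limma adjusted p = 0.0015). With arrays paired by spike-in signal Ndrg1 was also called lower (limma adjusted p = 0.0313). None of its 5 probe sets was called with all arrays, and their log2 fold changes ran from -3.40 to -2.16.

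Genes of acid handling and collagen maturation gave no calls. The carbonic anhydrases Car9 and Car12, which export acid equivalents, had log2 fold changes of -1.25 (SE 0.63) and -0.16 (SE 0.65). The prolyl and lysyl hydroxylases of collagen, P4ha1, P4ha2 and Plod2, had values of 0.11, 0.46 and 0.71, and Plod2 was bright on all arrays, from 17566 to 59791. Kdm3a, a histone demethylase, read 4663, 5548 and 6063 on the naïve and 2410, 4164 and 4232 on the iLarge T arrays. At the probe sets used, it was the only one of the 37 genes whose iLarge T arrays all lay below its naïve arrays. Its log2 fold change was -0.63 (SE 0.30, limma adjusted p = 0.327). Other probe sets of Tpi1, Vhl, Higd1a and Slc2a3, none called, also had all iLarge T arrays below the naïve ones. Ero1l, an oxidase of protein folding named Ero1a in the annotation, read from 5850 to 30357 on the naïve and from 9879 to 19478 on the iLarge T arrays. Higd1a, a mitochondrial survival protein, had a log2 fold change of 0.09 (SE 0.24), and Ankrd37 one of -1.07 (SE 1.2) with signals that differed most among the iLarge T arrays.

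One naïve array stood apart in several of these genes. On naïve 1, 7 of the 37 genes (18.9%) were at least 4-fold below the mean of naïve 3 and 5, against 7.20% of all genes. They were Egln3 (a log2 difference of -4.16), Ndrg1 (-3.72), Eno2 (-3.17), Aldoc (-3.0), Slc16a3 (-2.97), Bnip3 (-2.30) and Ero1l (-2.27). With signals under the 40th percentile of an array set to it, the same 7 genes remained, against 2.12% of all genes. At least 4-fold higher on naïve 1 was 1 gene (2.70%), Angptl4, against 11.4% of all genes, but its signals on naïve 3 and 5 were near background, and with low signals set to the 40th percentile there were 0 (2.13% of all genes). Of the 13 enzymes only the brain-type forms Aldoc and Eno2 were among the 7, while Ldha and Pgk1 were highest on naïve 1 within their group. On iLarge T 6, 3 of the 37 genes (8.11%) were at least 4-fold above the mean of iLarge T 2 and 4, namely Epas1, Slc16a3 and Ankrd37, against 4.79% of all genes, and none were as far below, against 7.94%. Ankrd37 was near background on iLarge T 2 and 4, and with low signals set to the 40th percentile Epas1 and Slc16a3 remained (5.41%, against 1.07% of all genes). These comparisons of single arrays were chosen after the values had been seen and are a description. Naïve 1 and iLarge T 2 also had the highest bioB spike-in signals, 4782 and 5383 against 1955 to 3145 on the other arrays, and their part in these differences was not tested. Mesothelial markers also split on naïve 1, with a median log2 difference of -1.91 over the 7 markers, against 0.07 over all genes. Msln read 1022 on naïve 1 and 42403 and 40853 on naïve 3 and 5, and Wt1 read 2274, 14912 and 13504, whereas Upk1b and Bnc1 were highest on naïve 1. The part of these markers in the naïve 1 differences was not tested.

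**Figure D4:**
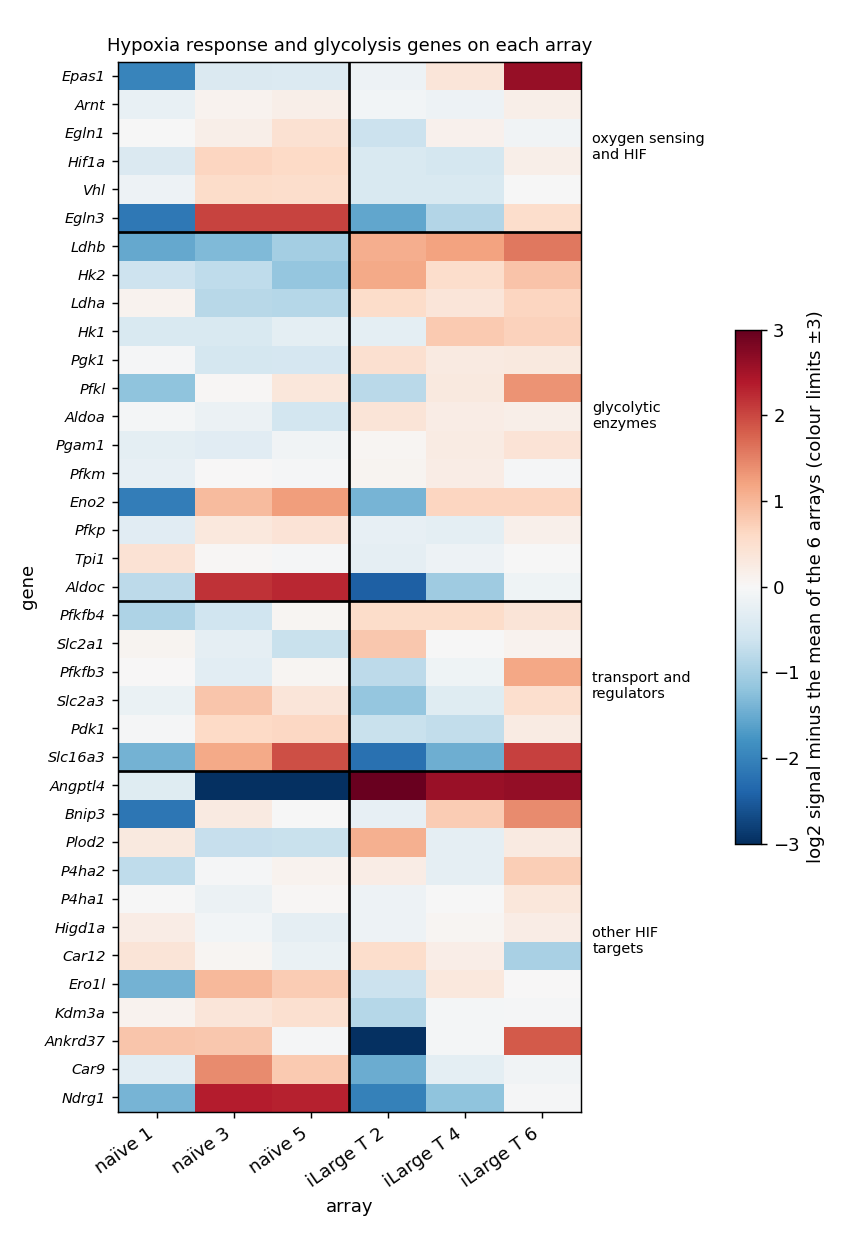
Colours give the log2 signal of each of the 37 genes (rows, in their 4 groups) on each of the 6 arrays (columns), minus the mean of the 6 arrays for that gene, with values beyond ±3 drawn at the limit. Egln3, Aldoc and Ndrg1 are high on naïve 3 and 5 and low or intermediate on the other 4 arrays, and Ldhb and Hk2 separate the groups.

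Further genes of these pathways, from lists that share no gene with the 37, were counted in the same way. Of 18 further glycolysis genes measured of 22 listed, 2 were called higher and 0 lower by limma (3 had an unadjusted p under 0.05), against 3.54% higher and 3.26% lower of all genes, with a median log2 fold change of 0.12. The called ones were Bpgm, which makes 2,3-bisphosphoglycerate, at 2.37 (SE 0.31, limma adjusted p = 0.00299), and Pdk4, a kinase that inhibits pyruvate dehydrogenase, at 4.65 (SE 0.74, limma adjusted p = 0.00765). Pkm, the pyruvate kinase of growing cells, read from 36689 to 38722 on the naïve and from 38804 to 53687 on the iLarge T arrays and was not called (log2 fold change 0.34, limma adjusted p = 0.525). Gapdh was present as control probe sets, and its 3′ set read from 75642 to 100251 on the naïve and from 93345 to 115006 on the iLarge T arrays.

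Of 40 further HIF pathway genes measured of 42 listed, 5 were called higher and 2 lower, against the same 3.54% and 3.26%, with a median of 0.19. The largest called increases were those of Adm, the vasodilator adrenomedullin, at 5.07 (SE 1.0, limma adjusted p = 0.0196), Plaur, the urokinase receptor, at 2.18, Plin2, a lipid droplet coat protein, at 2.03, and Errfi1, an inhibitor of the epidermal growth factor receptor, at 1.31. Met, the receptor of hepatocyte growth factor, at -2.73, and Siah1a, a ubiquitin ligase, at -1.11, were called lower. Vegfa, the best known angiogenic HIF target, read 1154, 7468 and 9913 on the naïve and 14552, 6784 and 9252 on the iLarge T arrays and was not called (log2 fold change 1.14, limma adjusted p = 0.457). Naïve 1 was its lowest array. By contrast, Adm read 3518, 256 and 132 and Lox 120041, 48417 and 46568 on naïve arrays 1, 3 and 5. Over the 40 genes the median log2 difference of naïve 1 from the mean of naïve 3 and 5 was -0.5, against 0.07 over all genes. None of 20 genes of the tricarboxylic acid cycle and pyruvate dehydrogenase was called by limma (1 had an unadjusted p under 0.05), and their log2 fold changes lay between -0.55 and 0.40. Of 7 genes of the pentose phosphate pathway, Pgd (1.91) and Taldo1 (1.10) were called higher and Prps1 (-1.22) lower, against the same shares of all genes. Of 11 proliferation genes, 9 were called lower in iLarge T BMSC, against 3.26% of all genes, with a median of -2.97, and the part of growth rate in the signals above was not tested.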

How the data were processed

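Gene expression was measured on 6 Affymetrix Mouse Genome 430 2.0 arrays, 3 of naïve and 3 of iLarge T BMSC. The deposited table holds the authors' MAS5 intensity signals, linear and scaled to a trimmed mean of 2500, with no detection calls. Log2 was taken here. The paper names GeneChip Operating Software for the signals, and precision is limited by having 3 arrays per group.

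Of 45101 probe sets, 64 controls were left out and 45037 tested. In GEO's platform annotation, which can be old, 34945 had 1 gene symbol, 932 several and 9160 none listed. Of the first, 34754 were found by gene identifier in RefSeq, and 0 symbols changed. Genes were named only from single-symbol probe sets.

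Groups were compared with limma 3.58.1 in R 4.3.3 (lmFit, eBayes with an intensity trend). In data simulated for this comparison on 45037 probe sets, it called 7, 36, 41 and 48 of 50 true log2 changes of 1, 2, 3 and 5, with 11 false calls. A true log2 change of 1 lies at the fold limit, so an estimate just under it failed by the fold rule alone. Fewer probe sets were changed than were called in the data, which makes the adjustment of p stricter. Other settings made calls easier than in the data. The simulated spread followed intensity alone, no array stood apart, and the changed probe sets were at or above the median signal. Each result was recomputed with the t-test of the study's methods (log2 or linear signals), without limma's trend, after quantile normalization, after dim probe sets were dropped or low signals set to the array's 40th percentile, with 16 added before log2, with other rules for the probe set and fold, and without each array. Python 3.11.15 was used for the rest, with scipy 1.17.1, pandas 2.3.3, numpy 2.4.6 and, for plots, matplotlib 3.10.9.

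The genes and lists were chosen with earlier results of these data known. Every measured member is named. Of each pathway list the called genes with the largest change are named, up to 4 in each direction, with Gapdh and Pkm in any case, and of each marker list up to 4 bright or near-background markers. Vegfa and Lox, and the array values given for Adm, were chosen after the values were seen.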

Additional observations from a re-analysis of the deposited data

How the results depend on the processing

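Hk2, Ldhb and Angptl4 were higher under every alternative, but the calls depended on the test. Of the 37 genes, 0 were called higher by the methods' t-test on log2 signals, by that on linear signals and by limma without the intensity trend, with adjusted p from 0.0523 to 0.172 for the 3 genes. These settings called 7, 17 and 85 genes of all higher and 7, 36 and 48 lower. With signals under the 40th percentile set to it, 5 of the 37 were called higher and 1 lower, and 971 of all genes higher. The count of all genes called lower under that setting is not given here. Leaving out each array gave 2 to 4 of the 37 higher and 0 to 3 lower, and 250 to 1298 of all genes higher and 232 to 1214 lower. Adjusted p ranged over all alternatives from 0.00171 to 0.147 for Hk2, from 3.32e-05 to 0.0967 for Ldhb and from 3.63e-05 to 0.172 for Angptl4.

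Alternatives chosen after seeing the data were a block fit and a fit without 2 arrays. The block paired arrays alike in bioC spike-in signal (1 with 2, 3 with 4, 5 with 6), which bioB gave only for 1 with 2. It called 6 of the 37 higher (Hk2, Ldhb, Angptl4, Epas1, Ldha and Bnip3) and 2 lower (Aldoc and Ndrg1). Leaving out naïve 1 and iLarge T 2 gave 5 higher and 3 lower (1272 and 1278 of all genes). For the block fit the counts over all genes are not given here, so its counts cannot be read against a background. Deviations of the paired arrays correlated at 0.309, 0.11 and 0.268 over 22519 probe sets. The other combinations of a naïve and an iLarge T array correlated between -0.3 and 0.12. The highest of these was naïve 3 with iLarge T 6, so the correlations did not single out iLarge T 4 as the partner of naïve 3. The labels do not state this pairing and give the groups no shared replicate numbers, so no other paired fit was run.

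The sign turned for 9 genes. Ankrd37 was at 0.04 on linear signals, 0.20 with low signals raised and 0.51 without naïve 1 and iLarge T 2. Under quantile normalization Arnt was at 0.03 and Eno2 at 0.02. With the most variable probe set Arnt was at 0.62, Pfkfb3 at -0.41, Pdk1 at 0.65, Car12 at 2.24, P4ha1 at -0.01 and Higd1a at -0.94, and with the mean of the probe sets Arnt was at 0.16, Pfkfb3 at -0.12, Car12 at 0.65 and Higd1a at -0.32. Leaving out each array moved Arnt from -0.16 to 0.03, Eno2 from -1.13 to 0.61, Ero1l from -0.96 to 0.23, Higd1a from -0.03 to 0.22, Ankrd37 from -2.26 to 0.36, Pfkfb3 from -0.37 to 0.59, Car12 from -0.47 to 0.28 and P4ha1 from -0.02 to 0.22. The other genes of the 37 kept their sign. The cause of these changes was not tested. The share of promoters with a HIF core was 65.6% with ACGTG alone. With 3 arrays a group, changes of 2-fold were seldom called in simulated data, in part because they lie at the fold limit. A gene that was not called may still differ.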
